A study of Mus musculus with 8 samples.

Results

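Gas6 and its receptors form the TAM system, and the methylation of 5 of its genes in mouse hepatocytes is described here: the ligand genes Gas6 and Pros1 and the receptor genes Axl, Mertk and Tyro3. The measured units were CpGs lying in the gene body or up to 1500 bases upstream of the gene start (mm10), with at least 5 reads in every mouse after both strands were summed. Of the 897285 CpGs that met this coverage in all mice, 116 lay in these 5 genes: 23 in Gas6, 24 in Pros1, 32 in Axl, 9 in Mertk and 28 in Tyro3. The set was selected on Gas6, whose difference between the age groups in these same mice was already known, so the age differences and calls of Gas6 are given below as a description, without a p-value. The other 4 genes entered as its partner ligand and its receptors.

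The libraries came from hepatocytes that were enriched from liver by perfusion, from female C57Bl6/J mice of 40 weeks (mid-aged, n = 4) and 10 weeks (young, n = 4), with 1 library per mouse and no other difference in the labels. Reduced representation bisulfite sequencing (RRBS) cuts DNA with MspI at CCGG, so that CpGs near such sites are read, and bisulfite treatment tells methylated from unmethylated cytosines. Reads over CpGs numbered 84639955 to 118395064 per library in mid-aged and 46321447 to 72710972 in young mice, so values of the young mice rest on fewer reads. The mean methylation of the tested CpGs was 44.2 to 44.3% in mid-aged and 43.6 to 44.1% in young mice. The labelled cell type could be checked on few markers. Of 12 hepatocyte marker genes, 1 (Fgb) had a promoter with 3 or more tested CpGs, at 16.0 to 23.1% in mid-aged and 3.35 to 26.3% in young mice. Kdr, the only one of 10 endothelial markers, was at 0.715 to 3.81% and 0.742 to 7.09%. The 6 of 8 stellate cell markers averaged 17.9 to 19.6% and 18.3 to 20.6%, and the 2 of 6 cholangiocyte markers 38.8 to 42.7% and 31.2 to 41.3%. The part of other cell types in the results was not tested. In bulk DNA, a partial level in every cell cannot be told apart from a different level in a share of the cells.

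TAM receptors are receptor tyrosine kinases. Gas6 and protein S, the product of Pros1, each bind certain members of this family with one end and phosphatidylserine on dying cells with the other. The contact with phosphatidylserine needs vitamin K-dependent carboxylation, and the receptors then drive engulfment and dampen innate immune signaling. In the liver, protein S is made by hepatocytes and circulates as an anticoagulant cofactor, while Gas6 is known mainly from Kupffer, stellate and endothelial cells, and Mertk and Axl from macrophages and stellate cells. Methylation of a CpG-dense promoter usually goes with a silent gene, whereas the bodies of genes are often methylated whether active or not.

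The 2 stretches of Gas6 in which the age groups stood apart are shown first, because the results turn on them. They lie in intron 2 of the gene, which runs on the reverse strand of chromosome 8 (13465374 to 13494490, ENSMUSG00000031451.6). Both are printed 5′ to 3′ on the forward strand of GRCm38 (the assembly of mm10), from the RefSeq copy of that genome, and tested CpGs are in capitals.
Gas6 chr8:13491745-13491892: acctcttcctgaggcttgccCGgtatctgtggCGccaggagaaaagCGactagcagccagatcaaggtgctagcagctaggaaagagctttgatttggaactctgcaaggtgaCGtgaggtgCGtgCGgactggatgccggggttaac
Gas6 chr8:13493219-13493391: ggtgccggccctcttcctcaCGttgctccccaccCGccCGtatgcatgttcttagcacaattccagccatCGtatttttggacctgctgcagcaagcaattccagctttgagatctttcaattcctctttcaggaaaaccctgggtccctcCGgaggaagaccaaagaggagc
The first stretch holds 7 CpGs, of which 6 were tested, and 2 CCGG sites, 1 near each end. The second holds 6 CpGs, of which 5 were tested, and also 2 CCGG sites. Between the outer tested CpGs, 0% of the bases of the first and 0.752% of the second are repeat-masked.

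Methylation along Gas6 changed with distance from the start site, and differently by age. The tested CpGs fell into 4 groups of neighbors at most 500 bases apart. The first group, 9 CpGs from 166 to 294 bases downstream of the start in coding exon 1 and intron 1, was nearly unmethylated in every mouse, with means of 2.46, 1.68, 2.77 and 1.63% in mid-aged mice 1 to 4 and of 3.66, 2.17, 1.53 and 2.76% in young mice 1 to 4. The fourth group, 3 CpGs from 3622 to 3655 bases downstream in intron 2, was highly methylated, at 85.3 to 97.2% in mid-aged and 79.0 to 87.8% in young mice. The ranges of the age groups overlapped in both. Between them, the second and the third groups, which are the printed stretches, had no mid-aged mouse at or above any young mouse.

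**Figure D1:**
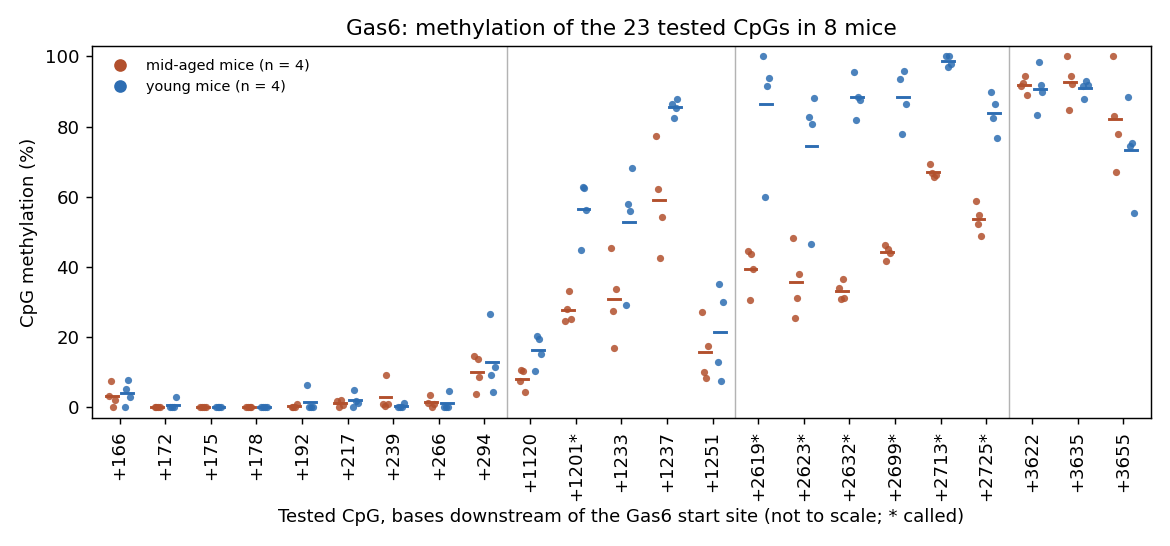
Methylation in percent (vertical axis) of the 23 tested CpGs of Gas6, ordered by distance in bases from the start site (horizontal axis, not to scale), with 1 point per mouse and a line at the mean of each age group of 4; vertical lines part the 4 groups of neighbors and asterisks mark called CpGs. The 9 CpGs nearest the start are low and the last 3 are high in both age groups, and the mid-aged means fall below the young means in between.

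The third group, 2619 to 2725 bases downstream of the start, was a run in which 6 of 6 tested CpGs were called. To be called, a CpG had to pass 3 limits: adjusted p under 0.05 over all tested CpGs, means at least 5 percentage points apart, and a variance between mice of less than 0.05 in each group. Averaged over the run, methylation was 50.2, 41.3, 46.2 and 44.6% in mid-aged mice 1 to 4 and 93.6, 74.3, 90.5 and 88.5% in young mice 1 to 4. Young mouse 2 was the lowest of its group, still well above the highest mid-aged mouse. The group means were 45.6% ± 3.69 and 86.7% ± 8.53 (SD, n = 4 each), a difference of -41.2 percentage points (mid-aged minus young).

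Within the run, the CpG at 13491858 had the widest gap. It was methylated at 34.1, 31.0, 36.7 and 31.3% in mid-aged mice 1 to 4, on 90 to 229 reads, and at 95.7, 81.9, 88.3 and 87.7% in young mice 1 to 4, on 46 to 116 reads. The 95% Wilson intervals, which cover counting error alone, ran from 25.1 to 47.0% over the mid-aged mice and from 73.9 to 98.8% over the young mice, so that no interval of one age met an interval of the other. At 13491791, the level was 46.3, 41.8, 45.1 and 43.9% against 93.5, 78.0, 95.8 and 86.4%, in the same order of mice. These 2 CpGs were read on both strands, and the forward and reverse reads gave like levels: at 13491858, pooled reads were 31.6 and 35.1% methylated in mid-aged and 87.1 and 86.5% in young mice.

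The remaining 4 CpGs of the run were read almost wholly on 1 strand. At 13491777, on forward reads, the young mice were almost fully methylated, at 100.0, 97.1, 100.0 and 97.9%, whereas the mid-aged mice kept 69.4, 66.9, 65.8 and 66.1%. At 13491765, also on forward reads, the levels were 58.9, 52.3, 54.8 and 48.8% in mid-aged and 90.0, 82.4, 86.5 and 76.7% in young mice. The last 2 CpGs rested on reverse reads and on the fewest of them, 15 in young mouse 2 and 16 in mid-aged mouse 3. At 13491871, mid-aged mice had 44.4, 30.5, 43.8 and 39.4% and young mice 100.0, 60.0, 91.7 and 93.9%. At 13491867, mid-aged mice had 48.1, 25.4, 31.3 and 38.0% and young mice 82.6, 46.7, 80.8 and 88.2%. This was the one called CpG at which the groups overlapped, since young mouse 2 lay below mid-aged mouse 1. CpGs of 1 run share reads and are not independent of each other.

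The second group, 1120 to 1251 bases downstream of the start, lay at intermediate levels with means of 36.4, 27.7, 22.3 and 27.0% in mid-aged mice 1 to 4 and 36.8, 51.7, 46.2 and 51.5% in young mice 1 to 4. Young mouse 1 lay just above mid-aged mouse 1. One of its 5 CpGs was called, at 13493289, the most deeply read of the called CpGs with 156 to 589 reads per mouse. It had 24.7, 27.9, 33.1 and 25.1% in mid-aged and 44.9, 62.7, 62.5 and 56.3% in young mice, with both strands alike (24.4 and 27.9% in pooled mid-aged reads, 56.3 and 59.2% in pooled young reads, forward and reverse). The neighbor at 13493253 was not called, with 77.3, 62.4, 42.6 and 54.3% in mid-aged and 86.4, 82.4, 85.4 and 87.8% in young mice. The mid-aged mice spread widely there.

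In all, 7 of 23 tested CpGs of Gas6 were called, each lower in mid-aged mice, where 0.163% of all tested CpGs were called and 0.102% were called as lower. At 7 of 23, though not the same 7, all mid-aged values were below all young values, against 1.24% of all tested CpGs. Because Gas6 was chosen for this contrast, nothing is read from these shares. Over the 14 CpGs of the body beyond 500 bases from the start, the mid-aged mean was 48.7% ± 4.46 and the young mean 72.0% ± 2.19, and that over the 9 promoter CpGs was 2.13% ± 0.569 and 2.53% ± 0.904 (SD, n = 4 each). Gas6 holds 499 CpGs in the genome over the gene and its upstream bases, and 4.61% of them were tested, all within 3655 bases of the start. The gene Tmem255b, which overlaps the far end of Gas6, therefore shares none of these CpGs. Outside the coverage rule, 6 CpGs of Gas6 had 4 reads in the shallowest mouse. Those from 13471449 to 13471490 had age differences of -25.0 to -21.6 percentage points, and those at 13489790 and 13489805 had 11.1 and 11.3. No tested CpG of Gas6 had a lowest coverage of exactly 5.

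Runs of at least 3 called CpGs in 1 direction, at most 200 bases apart, numbered 118 over the genome, 79 of them lower in mid-aged mice. Of those 79, 7 held more called CpGs than the Gas6 run and 16 had a larger loss of mean methylation, and the median difference was -31.3 percentage points. The 5 genes whose run was nearest to that of Gas6, by the Euclidean distance of the run means over the 8 mice, were Fasn, Gm38398, Pop5, Mknk2 and Daam2. Fasn, the fatty acid synthase gene, was nearest at a distance of 18.9 percentage points, with 43.2% ± 6.90 in mid-aged and 85.5% ± 1.97 in young mice over 8 CpGs (chromosome 11, 120820943 to 120821078). The others lay at 23.1, 24.1, 24.8 and 25.3 percentage points in the order named. Pop5, a subunit of RNase P, had the smallest difference of the 5, at 45.6% ± 3.23 and 75.9% ± 3.94. Mknk2, a kinase acting on the cap-binding factor eIF4E, had the largest, at 40.6% ± 6.84 and 88.7% ± 5.50. These genes were picked for likeness, so their values are a description.

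**Figure D2:**
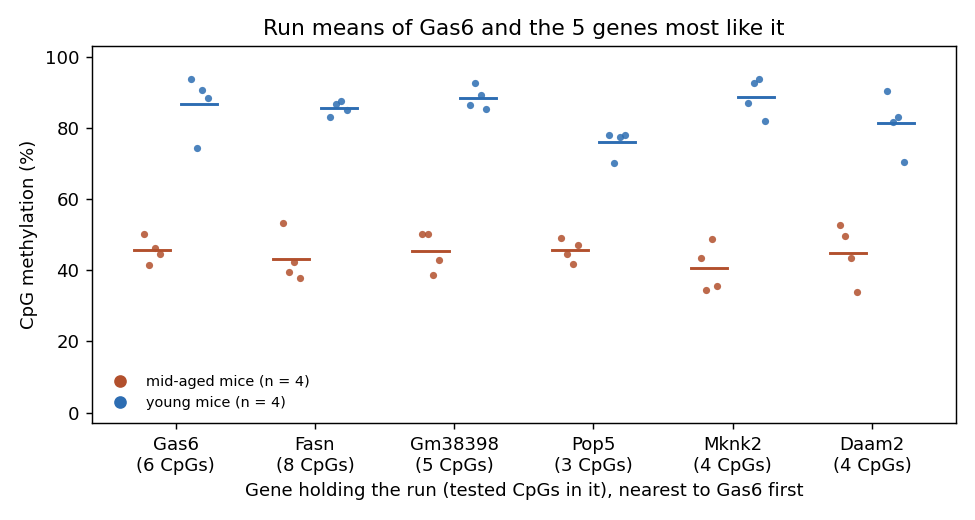
Mean methylation in percent (vertical axis) of the run of called CpGs in Gas6 and in the 5 genes most like it (horizontal axis, tested CpGs per run in brackets), with 1 point per mouse and a line at the mean of each age group of 4. In all 6 runs every mid-aged mouse lies below every young mouse, and the young mouse with the lowest Gas6 mean, at 74.3%, is not the lowest young mouse of the Fasn run.

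In Pros1, the gene of protein S (chromosome 16, forward strand, 62854307 to 62929346, ENSMUSG00000022912.8), none of 24 tested CpGs was called, where 0.163% of all tested CpGs were. The lowest adjusted p of the 24 was 0.598 in the quasi-binomial fit over all CpGs. None passed an unadjusted p of 0.05 in that fit, against 9.09% of all tested CpGs, while in the limma fit on M values 6 of 24 did (25.0%, against 12.9% of all) and with equal coverage in all mice 3 did (12.5%, against 7.35%). The gene showed a sharp contrast between its start and its body. The start and a methylated stretch of intron 1 are printed to show it, forward strand, with tested CpGs in capitals.
Pros1 chr16:62854247-62854306: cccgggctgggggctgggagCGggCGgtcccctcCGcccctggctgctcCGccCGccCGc
Pros1 chr16:62880193-62880379: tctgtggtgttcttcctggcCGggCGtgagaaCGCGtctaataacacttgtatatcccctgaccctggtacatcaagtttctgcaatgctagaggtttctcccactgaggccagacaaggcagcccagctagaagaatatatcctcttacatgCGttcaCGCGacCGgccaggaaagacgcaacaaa
The first ends at the base before the gene start and holds 6 of the 10 tested promoter CpGs. The second holds 8 tested CpGs, and 83.0% of the bases between the outer ones are repeat-masked.

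The 10 CpGs around the Pros1 start, from 40 bases upstream to 39 downstream in the 5′ UTR, had means of 0.801, 0.541, 1.33 and 2.12% in mid-aged mice 1 to 4 and of 0.0, 0.476, 0.0 and 0.0% in young mice 1 to 4. Every mid-aged mouse lay above every young mouse, as in 4.68% of all promoters, but the promoter means did not differ past the threshold (difference 1.08 percentage points, SE 0.336, adjusted p = 0.396, limma over 17684 promoters). The highest of these means, in mid-aged mouse 4, came mostly from the CpG at 62854346, with 17.5% of 40 reads. The young mice had 6 to 22 reads at these CpGs. Of all promoters, 0.0565% were called by that fit.

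In the body of Pros1, the 8 CpGs of the printed stretch were at 93.2 to 98.1% in mid-aged and 95.4 to 98.4% in young mice, and 3 CpGs in intron 6 at 89.0 to 96.2% and 89.2 to 94.1%. The remaining 3 CpGs, 18938 to 19086 bases downstream in intron 1, varied most. They had means of 54.6, 64.6, 60.4 and 67.2% in mid-aged and 74.3, 86.1, 62.6 and 70.7% in young mice, with overlapping ranges. The CpG with the largest difference among those read at least 10 times in every mouse, at 62873245, had 13.3, 24.0, 26.3 and 25.0% in mid-aged and 31.9, 58.3, 23.4 and 38.4% in young mice. The adjusted p was 0.622 for a difference of -15.8 percentage points, and young mouse 2, the highest, had 12 reads there. The mean over the 14 body CpGs was 88.2% ± 2.78 and 90.8% ± 1.55 (adjusted p = 0.58, limma over 18318 gene bodies, of which 0.508% were called).

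**Figure D3:**
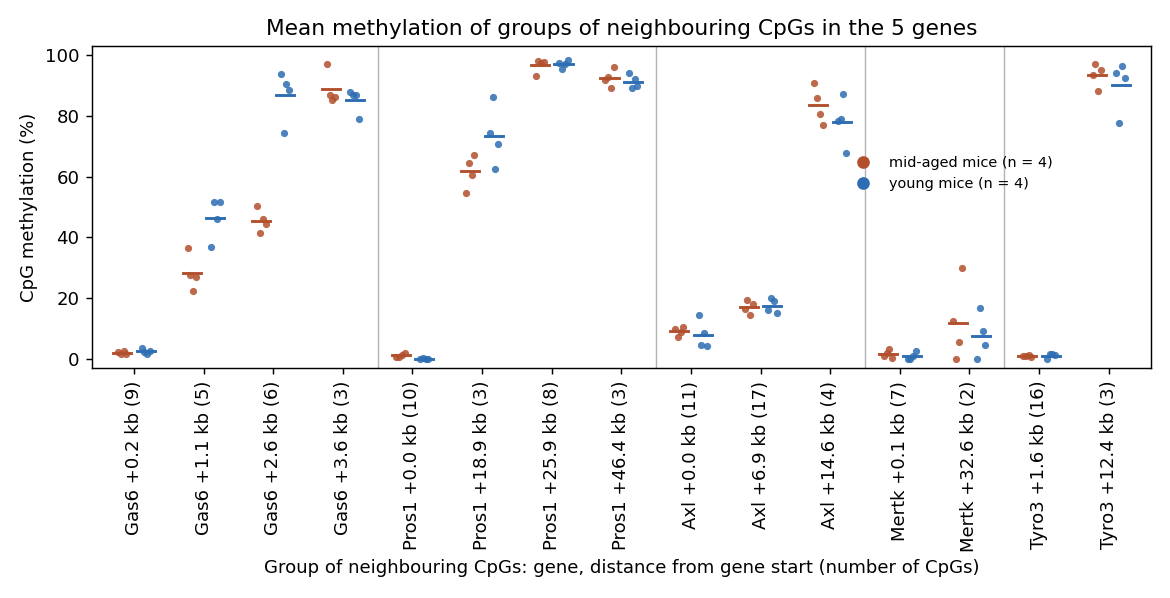
Mean methylation in percent (vertical axis) of 15 groups of neighboring CpGs in the 5 genes, each named by its distance in kilobases from the gene start and its number of CpGs (horizontal axis), with 1 point per mouse and a line at the mean of each age group of 4. The groups at the starts of the genes lie low, that of Axl highest among them. Those farthest inside Pros1, Axl and Tyro3 lie high while the group of Axl in intron 4 lies low. The age groups part widely in the second and the third groups of Gas6.

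Axl, the receptor that binds Gas6 with high affinity (chromosome 7, reverse strand, 25757273 to 25788705, ENSMUSG00000002602.16), had no called CpG among 32, where 0.163% of all tested CpGs were called. Its lowest adjusted p was 0.544 in the quasi-binomial fit. Its methylation was low at the start, low again deep in intron 4, and high in exon 8. The 11 CpGs from 32 to 325 bases downstream of the gene start averaged 9.91, 7.25, 8.92 and 10.7% in mid-aged mice 1 to 4 and 14.5, 4.50, 8.60 and 4.31% in young mice 1 to 4. The young mice spanned the whole range of the mid-aged mice (9.20% ± 1.49 against 7.98% ± 4.78, adjusted p = 0.904, limma). Among the 5 genes, this was the start with the highest level.

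The second low stretch of Axl lies 6890 to 7353 bases downstream of the gene start in intron 4, and its CpG-dense part is printed because the low level there lies inside the gene body (forward strand, tested CpGs in capitals).
Axl chr7:25781616-25781836: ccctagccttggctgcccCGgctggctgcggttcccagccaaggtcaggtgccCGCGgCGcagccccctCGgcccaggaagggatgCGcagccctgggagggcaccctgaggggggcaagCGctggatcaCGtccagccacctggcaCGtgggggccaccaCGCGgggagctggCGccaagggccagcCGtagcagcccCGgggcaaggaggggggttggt
Its 17 tested CpGs averaged 16.4, 19.5, 14.4 and 18.3% in mid-aged and 16.1, 20.1, 19.0 and 15.2% in young mice, a difference of -0.411 percentage points. Single CpGs in it ranged from 3.52 to 69.0% over all mice, the highest at its sparse edge. The CpG of Axl with the largest difference among those read at least 10 times in every mouse lay here, at 25781746, with 18.5, 11.1, 7.32 and 15.1% in mid-aged and 40.0, 13.6, 24.0 and 16.7% in young mice (difference -10.6 percentage points, adjusted p = 0.682). The high young mouse had 10 reads. In exon 8 and the intron after it, 4 CpGs averaged 77.0 to 90.7% in mid-aged and 67.8 to 87.1% in young mice. The body mean of Axl was 29.8% ± 2.14 and 29.1% ± 3.14 (adjusted p = 0.914, limma).

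Mertk, the receptor used by macrophages to clear dying cells (chromosome 2, forward strand, 128698956 to 128802894, ENSMUSG00000014361.5), was the least covered. It had 9 tested CpGs, 0.892% of those in the genome over the gene. None was called, where 0.163% of all tested CpGs were, and the lowest adjusted p was 0.666 in the quasi-binomial fit. The 7 CpGs from 59 to 133 bases downstream of the start, in the 5′ UTR and coding part of exon 1, averaged 1.02, 2.05, 3.21 and 0.336% in mid-aged and 0.0, 0.0, 1.14 and 2.56% in young mice. The means of 1.65% ± 1.25 and 0.926% ± 1.22 overlapped (adjusted p = 0.819, limma). At 128699089, which had the largest difference of those read at least 10 times in every mouse, 1.09 percentage points (adjusted p = 0.991), 2 mid-aged mice and 1 young mouse had any methylated read. The 2 remaining CpGs, in intron 2, had 5 reads in the shallowest mouse and averaged 12.5, 0.0, 5.56 and 30.0% in mid-aged and 0.0, 16.7, 9.09 and 4.55% in young mice. This spread allows no ordering of the ages, and with 2 CpGs no body mean was fitted.

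Tyro3, the receptor best known from neurons (chromosome 2, forward strand, 119797733 to 119818104, ENSMUSG00000027298.17), had 28 tested CpGs and no call, where 0.163% of all tested CpGs were called. Its lowest adjusted p was 0.534 in the quasi-binomial fit. Its annotated gene start is that of a longer transcript. The principal transcript starts at 119799514, and no tested CpG lay within 1500 bases upstream to 500 downstream of the gene start. The 16 CpGs just before the principal start averaged 1.07, 0.953, 1.19 and 0.833% in mid-aged and 0.0, 1.50, 1.79 and 1.27% in young mice. In coding exon 11, 3 CpGs averaged 88.2 to 97.1% and 77.8 to 96.3%, on as few as 5 reads. The mean over all 28 CpGs was 14.9% ± 0.613 and 14.6% ± 1.21 (adjusted p = 0.903, limma).

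Among the 93 CpGs of Pros1, Axl, Mertk and Tyro3, 0 were called in the quasi-binomial fit, beside 0.163% of all tested CpGs. At so low a share, 93 CpGs can hold no call without standing apart from the genome, so nothing is read from the 0. Of the 93, 2 had an unadjusted p under 0.05 in that fit (2.15%, against 9.09% of all tested CpGs). The limma fit on M values also called 0, and 12 of the 93 had an unadjusted p under 0.05 there (12.9%, equal to the 12.9% of all tested CpGs). The median difference was 0.27 percentage points, beside 0.21 over all tested CpGs, and single differences ran from -15.8 to 13.9. The difference of 13.9, in exon 11 of Tyro3, belonged to a CpG with 5 reads in the shallowest mouse. CpGs with exactly 5 such reads, just inside the coverage rule, numbered 6 in Axl, 2 in Mertk and 4 in Tyro3, with differences between -2.38 and 13.9. Those just outside, with 4, numbered 3 in Axl and 12 in Tyro3, with differences between -6.67 and 6.84. The smallest difference that could have been called in these genes was not computed.

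**Figure D4:**
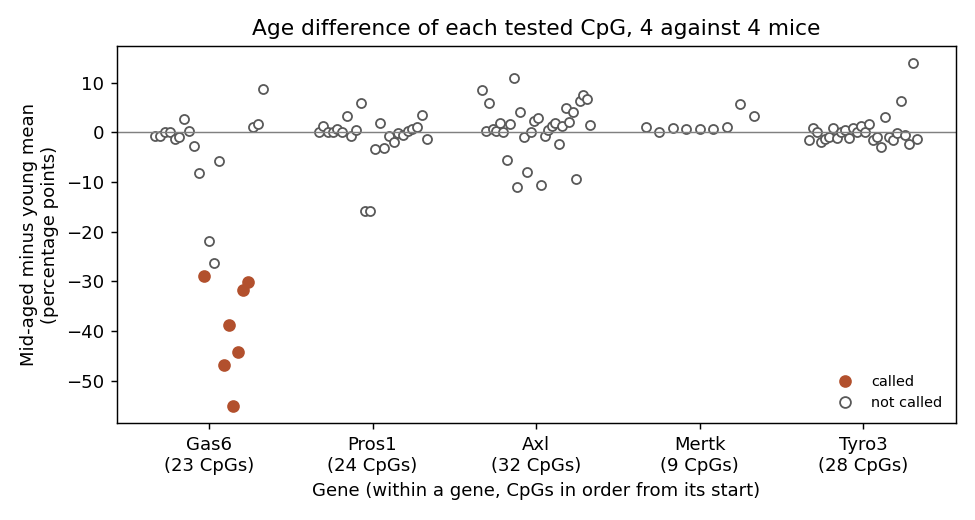
Mid-aged minus young mean methylation in percentage points (vertical axis) of each of the 116 tested CpGs, by gene and in order from the gene start (horizontal axis), with called CpGs filled; each point compares 4 with 4 mice. All 7 filled points belong to Gas6 and lie at -28.9 or lower, and the 93 points of the other 4 genes lie between -15.8 and 13.9.

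CpGs in denser surroundings tended to have a lower level, with exceptions. Over the 116 CpGs, the number of CpGs in the surrounding 100 bases and the mean level over the 8 mice had a Spearman correlation of -0.667, a description across sites that share libraries and, in part, reads. The start of Pros1 held 13.6 CpGs per 100 bases and the 16 CpGs before the principal Tyro3 start 11.5, against 5.56 in the Gas6 run and 3.76 in the second group of Gas6. The 3 CpGs in exon 11 of Tyro3, with 10.3 CpGs per 100 bases, were at 91.8% over all mice, and the fourth group of Gas6, with 8.57, was at 87.0%. Over the 16 groups of neighbors the correlation was -0.412. Of the 116, 66.4% averaged under 20% methylation, compared with 48.5% of all tested CpGs.

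The RefSeq promoters of the 5 genes (250 bases before to 50 after the start, GRCm38) all matched by symbol and were searched for 4 motifs on both strands, as were the 300 bases centered on the Gas6 run. The GC box GGGCGG occurred in all 5 promoters, 4 times in Gas6, Pros1 and Mertk each, 2 times in Axl and 5 times in Tyro3, and in 35.7% of all 32851 promoters. It did not occur at the Gas6 run, and was in 27 of the 95 windows of that length at runs in genes (28.4%). The E-box CACGTG occurred once at the Gas6 run (from 13491957, at a higher forward coordinate than the called CpGs) and in 3 of the 95 windows of that length at runs in genes (3.16%), and in none of the 5 promoters, against 7.15% of all. The AP-1 motif TGACTCA was in none of these windows, against 5.20% of all promoters. CCGG, the MspI site, was in 4 of the 5 promoters, all but that of Axl, against 52.8% of all, and 2 times at the Gas6 run. All 95 windows at runs in genes held it, and RRBS reads CpGs near such sites. A match of letters is not a bound site.

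Beyond the 5 genes, a list of 59 genes of the same biology was examined: other phosphatidylserine bridging proteins and receptors, engulfment genes, vitamin K-dependent carboxylation with its substrates, and receptor shedding and signaling. Of these, 57 had a tested CpG, and 2 of 3021 CpGs were called (0.0662%, beside 0.163% of all tested CpGs), both lower in mid-aged mice. The median difference over the 3021 CpGs was 0.20 percentage points, beside 0.21 over all tested CpGs. The 1039 CpGs of the 18 bridging and receptor genes and the 694 CpGs of the 11 engulfment genes held 0 calls in the quasi-binomial fit. In that fit 104 of the 1039 and 46 of the 694 had an unadjusted p under 0.05. The first share lay above and the second below the 9.09% of all tested CpGs. In Akt1, a kinase downstream of the receptors, the CpG at chromosome 12, 112670818 was at 6.63% ± 2.28 in the mid-aged and 31.5% ± 7.49 in the young group, with an adjusted p of 0.00011 in the quasi-binomial fit and at least 137 reads per mouse. The mid-aged mice ranged from 3.50 to 8.62% and the young mice from 20.3 to 35.8%. In Cyp4f14, a cytochrome of the vitamin K-degrading family, the CpG at chromosome 17, 32907704 had 30.9% ± 3.75 and 62.0% ± 11.8 (adjusted p = 0.0232, at least 33 reads per mouse). Its ranges, 27.7 to 35.8% and 46.3 to 74.3%, did not overlap either. The count of calls in the list rests on few CpGs: it was 1 without any 1 of the mid-aged mice, 7 without young mouse 1 (0.232%, beside 0.268% of all tested CpGs), 5 without young mouse 4 (0.166%, beside 0.195%) and 0 in the limma fit on M values. With equal coverage in all mice it was 6, and the share of 0.199% was then above the 0.178% of all tested CpGs.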

How the data were processed

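RRBS of perfusion-enriched hepatocytes was measured in 8 mice, 1 library each. With mm10 coordinates and separately by strand, the authors deposited for every covered CpG a percent (reads that were methylated) and a coverage (a count of reads), neither of them normalized. The submitters' processing notes list Trim Galore 0.4.2, FastQC, SAMtools 1.3, BWA 0.6.2 and Picard 1.115, with the caller not given in the sources used here. PCR duplicates cannot be told from separate molecules in such counts, so intervals cover counting error alone.

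From these files, methylated reads were recovered as percent times coverage, and strands were summed. Groups follow the age label. Each CpG was fitted by a quasi-binomial logistic model with an F test, a dispersion of at least 1 moderated by limma 3.58.1 (R 4.3.3), and adjustment by Benjamini-Hochberg over 897285 CpGs. Promoter (1500 bases upstream to 500 downstream) and body means with 3 or more CpGs were fitted by limma with a trend over all genes. Gas6 went through the same fits, and its calls are counted as a description, because the gene was selected on this contrast. The fits were tested on simulated data. Alternatives were a coverage minimum of 10, M values, equal coverage, pooled reads, the adjusted p alone, a narrower promoter, a replicate block and leaving out each mouse.

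Annotation was GENCODE vM21, with 1 principal transcript per gene, and all 116 CpGs lay on CG in the genome. Software was pandas 2.3.3, scipy 1.17.1, numpy 2.4.6 and pysam 0.24.0 under Python 3.11.15. No pair of libraries shared more than 0.961% of counts, so no library was a copy. The members and lists were chosen with earlier results of these data known, and the groups of neighboring CpGs (at most 500 bases apart) were formed after their values were seen. Named were every called CpG of a member, otherwise its CpG of largest difference with at least 10 reads in every mouse, the called genes of the pathway list and the 5 runs nearest to that of Gas6. Not reported here are the Tyro3 CpG that this rule names, 1 group of Tyro3 CpGs and 1 list of cell type markers. The other assays of the study were not analyzed here.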

Additional observations from a re-analysis of the deposited data

Results flagged for a closer look

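In groups of 4 mice, a mouse was singled out when its gap to the nearest other mouse divided by the range of its group exceeded Dixon's 95% critical value, which chance gives in about 1 of 20 groups. Of 46 groups examined, 4 held such a mouse. In the fourth group of Gas6 CpGs, mid-aged mouse 1 was at 97.2% while the other mid-aged mice were at 85.3 to 86.8%, and young mouse 4 was at 79.0% while the other young mice were at 86.8 to 87.8%. Mid-aged mouse 1 had only 11 to 12 reads at each of these CpGs, and the other mid-aged mice had 59 to 72. At the start of Pros1, young mouse 2 was at 0.476% while the other young mice were at 0.0%. That value came from the CpG at 62854320 alone, with 4.76% of 21 reads. In the methylated stretch of Pros1 intron 1, mid-aged mouse 1 was at 93.2% while the others were at 97.3 to 98.1%. It had 13 reads at each tested CpG from 62880213 to 62880227.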

How the results depend on the processing

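The Gas6 run kept its direction under every alternative run. The difference was -41.2 percentage points at a coverage minimum of 10 and over all tested CpGs within 500 bases, which are the same 6 CpGs. Without 1 mouse, the difference was -45.3 to -38.9. Because Gas6 was selected on this contrast in these mice, these values are a description and no support. The 4 other genes had 0 called CpGs under every alternative. The share of all tested CpGs called was 0.0% with a replicate block and at most 0.268%, without young replicate 1. With so few CpGs in the 4 genes, nothing about them is read from the 0. Of the 7 calls in Gas6, and so in the 5 genes, 6 remained at equal coverage in all mice, 2 in the limma fit on M values (40 calls over all CpGs in place of 1466), and 5 to 10 without 1 mouse. The count was 10 without young replicate 1, when 13493253, 13493257 and 13493370 were added. The calls of the pathway list were 2 and became 4 at a coverage minimum of 10, 6 at equal coverage and 0 on M values; they were 1 without any 1 of the mid-aged mice, 7 without young replicate 1 and 5 without young replicate 4, a range of 1 to 7. With pooled reads, the body differences of Axl and Tyro3 were -4.30 and -5.49 percentage points, not past the threshold; the cause was not tested.

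With a replicate block in the quasi-binomial fit there were 0 calls in Gas6, the 5 genes, the pathway list and the whole genome. An unadjusted p under 0.05 was reached there by 95 of the 3021 CpGs of the list and by 3.66% of all tested CpGs. Among the 5 genes, of which Mertk had no fitted body mean, 0 body means were called, in place of 1, that of Gas6. Its difference of -23.3 percentage points is the same in both fits. Over all genes 13 of 18318 body means were called, in place of 93. Over 123318 CpGs, the deviations of mid-aged and young mice that share a number had correlations of -0.0024 to 0.0081. Those of mice with different numbers had correlations of -0.0091 to 0.0101. The numbers mark no shared origin in the labels. A block also leaves fewer values to estimate the spread, and why the calls were lost was not tested.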
